A study of Drosophila melanogaster with 11 samples.

Results

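Inx3, Nrt and Itgbn are 3 genes for proteins of cell contact whose transcripts stood far above the oocyte level in wild-type Drosophila melanogaster embryos and much closer to it in smg material. They were taken by name from 6793 genes on the array, and 6 spots carried them, 2 spots for each gene. They had been picked from 5 genes that an earlier fit of these arrays called lower in smg than in wild-type embryos. Their levels on the wild-type and smg arrays are therefore given as a description, with no test. The 3 genes matched the reference annotation by gene number, as CG1448 (Inx3), CG9704 (Nrt) and CG1762 (Itgbn).

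The study's title concerns SMAUG, an RNA-binding repressor of maternal transcripts encoded by smg, and the start of zygotic transcription. Each of the 11 arrays set the RNA of 1 collection against RNA of w1118 oocytes of stage 14. The groups were w1118 embryos aged 2 to 3 h (4 arrays), material of that age labelled SMG (4 arrays, of which the source of replicate 4 reads SMGoverDf), and w1118 unfertilized eggs aged 4 to 6 h (3 arrays). The labels give no alleles for the smg group and do not say whether arrays came from separate collections, so that the spread between arrays may be technical. All arrays shared the oocyte reference strain. The sample was in the far-red Alexa Fluor dye on the 2 to 3 h arrays and in Cy3 on the unfertilized arrays, so dye, labelling method, age and fertilization differ together between these sets and cannot be told apart.

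Innexins are the channel proteins of insect gap junctions, and Inx3 forms mixed channels with Inx2 in embryonic epithelia. Neurotactin, the product of Nrt, is a transmembrane protein with a cholinesterase-like outer part. It binds the secreted protein Amalgam and acts in cell adhesion and axon guidance. Itgbn encodes integrin beta-nu, the lesser known of the fly's integrin beta chains, which has roles in the midgut and in the engulfment of dying cells. Before zygotic transcription the embryo is a syncytium that lives on maternal transcripts. It then divides into a sheet of cells, which need contact proteins at their new membranes.

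Values are log2 ratios, averaged over the spots of a gene, from which the median over all genes of the same array was subtracted. A value of 0 is thus the median gene of that array and not necessarily the oocyte level of the transcript. In bulk RNA a lower level in fewer cells cannot be told apart from less RNA per cell. Wild-type embryo replicate 1 and smg replicate 1 stood apart before centring, with gene medians of -4.01 and -4.43 against -0.37 to 0.16 on the other 9 arrays. They also had values for 48.9% and 51.1% of spots, against 75.0% to 99.1% elsewhere. Over all genes the correlation between these 2 arrays was 0.79, the highest of any pair and across the 2 groups. Centring does not change that likeness. With the other smg arrays, smg replicate 1 had correlations of 0.47, -0.51 and -0.17.

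The numerator of the ratio is not stated, and sample over oocyte is the likely direction, judged by how the titles order their names and by markers of oocyte material. Of these Yp1, Yp2 and Yp3, which encode yolk proteins, had values and lay below the median on all 11 arrays. Of 7 zygotic patterning genes 5 were called higher in wild-type embryos. Array medians over all genes of this list with values were 1.08 to 1.59 there and -0.13 to 0.11 in unfertilized eggs. From the same list tll went the other way, at 0.0 in wild-type embryos and called higher in unfertilized eggs than in oocytes (0.73, adjusted p = 0.0481 by limma). Over all genes smg replicate 3 had negative correlations of -0.51 and -0.34 with the first 2 smg arrays, -0.49 with wild-type embryo replicate 1 and -0.41 with unfertilized replicate 1. Transcripts of 6 maternal genes known to be degraded, smg itself among them, had array medians of -2.59 to -1.42 in wild-type embryos. On smg replicates 1 to 4 these medians were -2.05, -1.11, 2.00 and 0.20, highest on replicate 3. That array had a positive correlation of 0.76 with smg replicate 4. With the same partners in the same order, replicate 4 had weaker negative correlations of -0.17, -0.12, -0.18 and -0.18. Yp1 (-3.01), Yp2 (-1.2), Yp3 (-1.75) and the maternal transcript exu (-1.56) lay below 0 on smg replicate 3, as on the other 10 arrays. Of the 7 zygotic patterning genes 4 lay above 0 on it, with a median of 0.01. The markers of oocyte material thus had the same sign there as elsewhere, while by the correlations its direction is not settled. Values that rest on it are therefore repeated for the opposite sign. The smg transcript itself was at -2.66, -1.18, 2.02 and 0.21 on smg replicates 1 to 4. In wild-type embryos it was at -2.60, -0.77, -1.44 and -1.12, in an overlapping range. The labels do not give the lesion, so these values are no check of the genotype.

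Inx3, the gap junction channel gene, was at 4.37, 3.89, 3.81 and 4.09 on wild-type embryo replicates 1 to 4. On smg replicates 1 to 4 it was at 0.97, 0.32, 1.27 and 1.41, and in unfertilized eggs at -0.08, -0.57 and -0.18. The 3 groups did not overlap. The lowest wild-type array stood 2.40 above the highest smg array, while the lowest smg array stood only 0.40 above the highest unfertilized array. The group means were 4.04 ± 0.25 (SD, n = 4), 0.99 ± 0.49 (n = 4) and -0.28 ± 0.26 (n = 3) in that order. As a geometric mean, the transcript was 16.4-fold over the oocyte level in wild-type embryos and 1.99-fold in smg, so that wild-type embryos held 8.27-fold more. As deposited, without centring, the wild-type mean was 3.04, or 8.21-fold, because replicate 1 then stood at 0.36.

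Nrt, the neurotactin gene, was at 4.23, 3.02, 3.49 and 3.95 in wild-type embryos. In smg it was at 0.51, 0.89, 1.32 and 2.14, and in unfertilized eggs at 0.28, 0.12 and 0.15. The groups again did not overlap, but smg replicate 4 came within 0.88 of the lowest wild-type array, the smallest such gap among the 3 genes. Nrt also had the widest spread in smg, with a mean of 1.22 ± 0.70 (n = 4) against 3.67 ± 0.53 (n = 4) in wild-type embryos. In unfertilized eggs its mean was 0.18 ± 0.09 (n = 3). These means correspond to 12.8-fold over oocytes in wild-type embryos and 2.32-fold in smg. The wild-type mean as deposited was 2.67, or 6.37-fold, with replicate 1 at 0.22. The smg mean without replicate 4, the array labelled SMGoverDf, was 0.91.

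Itgbn, the integrin beta-nu gene, was at 3.32, 2.56, 2.47 and 3.24 in wild-type embryos. In smg it was at 1.07, 0.34, 0.51 and 0.51, and in unfertilized eggs at -0.10, -0.51 and 0.19. Here the smg arrays lay close together apart from replicate 1, and the lowest of them stood 0.15 above the highest unfertilized array. The means were 2.90 ± 0.44 (n = 4), 0.61 ± 0.32 (n = 4) and -0.14 ± 0.35 (n = 3). Wild-type embryos were at 7.46-fold and smg at 1.52-fold over oocytes. As deposited the wild-type mean was 1.90, or 3.72-fold, with replicate 1 at -0.69 on an array whose gene median was -4.01.

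**Figure D1:**
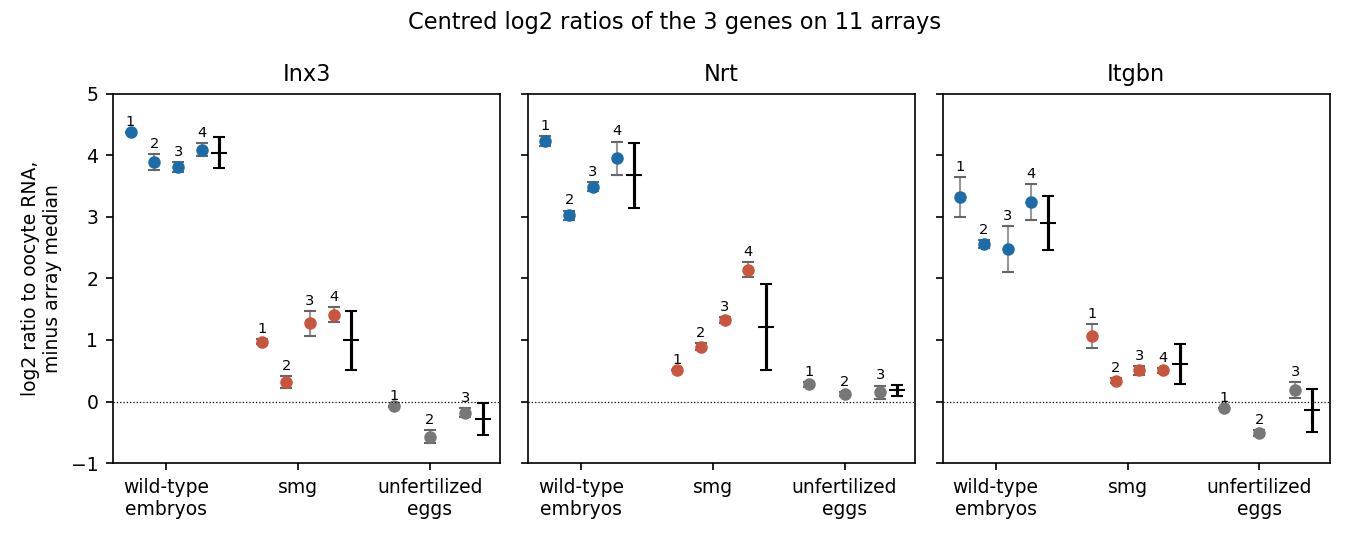
Log2 ratio to oocyte RNA after subtraction of the array median (vertical axis) for Inx3, Nrt and Itgbn in wild-type embryos, smg and unfertilized eggs. Points are arrays numbered by replicate, grey dashes are the 2 spots of each gene, and black bars are group mean and SD; all 12 wild-type points lie above 2.4 and no smg point lies above 2.14.

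The order of the levels was the same for the 3 genes, with wild-type embryos highest, smg next and unfertilized eggs lowest. The difference of smg from unfertilized eggs was 1.27 for Inx3, 1.03 for Nrt and 0.75 for Itgbn, and the gaps between the nearest arrays of these neighbours were smaller than the SD within smg for each gene. All 4 smg arrays lay above all 3 unfertilized arrays for the 3 genes, as they did for 9.97% of the 6107 genes with enough values. All 4 smg arrays also lay above the array median for the 3 genes, against 9.36% of 6112 genes. The smg arrays were part of the choice of the genes, so both counts are descriptions. Every wild-type embryo array lay above every smg array for 4.04% of 5791 genes, but the 3 genes were chosen for that difference, so nothing is read from the count. The same holds for the fits over all genes. There the 3 were among the 0.0863% of genes called lower in smg than in wild-type embryos. They were also among the 0.822% called higher in wild-type embryos than in oocytes, and the 0.301% called higher there than in unfertilized eggs. In smg against oocytes none of the 3 was called, where 0.0818% of all genes were. The adjusted p by limma was 0.257 for Inx3, 0.251 for Nrt and 0.451 for Itgbn, though each had an unadjusted p under 0.05. None was called in smg against oocytes in any of the 15 alternatives described below.

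The smg level depended on the arrays with an unsettled centre or sign. As deposited, without centring, the mean over the 4 smg arrays was -0.12 for Inx3, 0.10 for Nrt and -0.51 for Itgbn, because smg replicate 1 then stood at -3.46, -3.91 and -3.36. With the opposite sign for smg replicate 3, the centred means were 0.36, 0.56 and 0.35. Without that array they were 0.90, 1.18 and 0.64. A mean level in smg above that of oocytes was thus seen after centring and not in the deposited means, where Nrt at 0.10 had an SE of 1.04. On smg replicates 2 to 4 the deposited values were 0.18, 1.24 and 1.54 for Inx3. They were 0.76, 1.30 and 2.28 for Nrt and 0.21, 0.48 and 0.64 for Itgbn, so the low deposited means rested on replicate 1.

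The distance between smg and wild-type embryos was of like size under these changes. It was -3.05 for Inx3 (SE 0.37), -2.46 for Nrt (SE 0.44) and -2.29 for Itgbn (SE 0.37), and as deposited it was -3.16, -2.57 and -2.40. With the opposite sign for smg replicate 3 it was -3.68, -3.12 and -2.55. It was below 0 for each gene in all 15 alternatives, between -3.68 and -2.82 for Inx3, between -3.12 and -2.04 for Nrt and between -2.60 and -2.15 for Itgbn. Since the genes were chosen on this difference, its sign is no sign of stability. The call that chose them was less steady than the size: Inx3 stayed under an adjusted p of 0.05 by limma in 10 of the 15 alternatives, and Nrt and Itgbn in 6 each. None of the 3 was called as deposited, without both replicates 1, or without wild-type embryo replicate 1, 2 or 4. Nrt and Itgbn were also not called without wild-type embryo replicate 3, without smg replicate 2 or 4, or with the opposite sign for smg replicate 3.

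**Figure D2:**
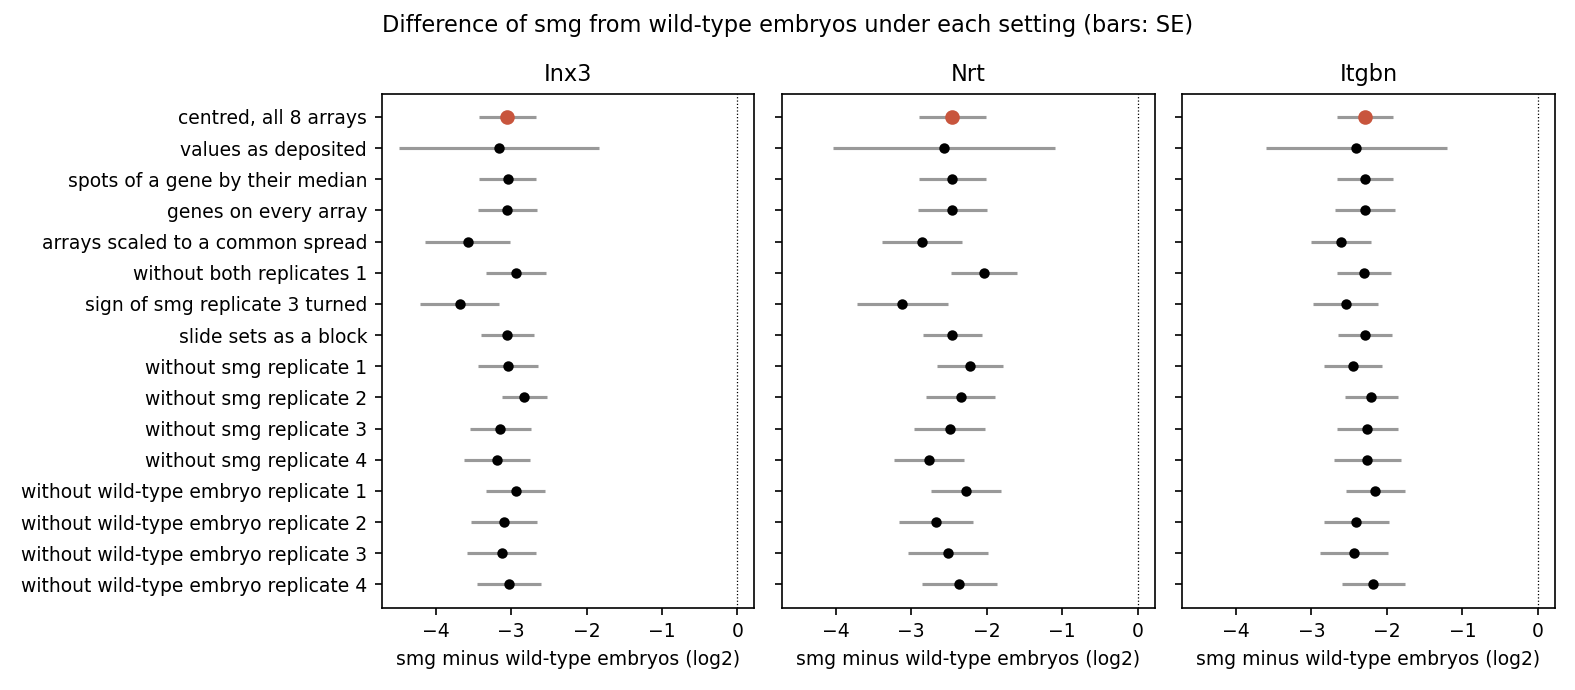
Log2 difference of smg from wild-type embryos (horizontal axis) for Inx3, Nrt and Itgbn under each setting of the analysis (vertical axis), with bars of 1 standard error. The red point is the centred value from 8 arrays, -3.05, -2.46 and -2.29; the bars are widest for the values as deposited.

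The titles carry slide numbers, which place replicates 1 and 2 of both 2 to 3 h groups on earlier slides than replicates 3 and 4. For Inx3 smg minus wild type was -3.49 on the earlier and -2.61 on the later slides, and for Nrt -2.92 and -1.99. For Itgbn it was -2.23 and -2.35. The wild-type means hardly differed between the sets for any of the 3, from 4.13 to 3.95 for Inx3, from 3.62 to 3.72 for Nrt and from 2.94 to 2.86 for Itgbn. The smg means of Inx3 and Nrt were higher in the later set, 1.34 against 0.64 and 1.73 against 0.70, and that of Itgbn was 0.51 against 0.70. With 2 arrays of each group in a set, these differences were not tested.

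The 2 spots of each gene agreed closely beside the distance between groups. The median gap between them was 0.20 for Inx3, 0.16 for Nrt and 0.20 for Itgbn. The widest was 0.74, for Itgbn on wild-type embryo replicate 3, where the spots read 2.10 and 2.85. Nrt on smg replicate 1 and Itgbn on unfertilized replicate 1 rested on 1 spot.

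Because the arrays differ in spread, the rank of a gene within its array gives a second view. In wild-type embryos Inx3 ranked 3rd of 3824 measured genes on replicate 1, 7th of 6775, 4th of 6777 and 2nd of 6299 on the others. Nrt ranked 4th, 17th, 8th and 4th, and Itgbn 6th, 23rd, 18th and 10th. The 3 transcripts were therefore among the 23 highest ratios on each wild-type embryo array.

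In smg the ranks lay in the broad upper part of the distribution and differed between the genes. Inx3 exceeded 80.0%, 67.1%, 77.3% and 98.1% of measured genes on replicates 1 to 4, and Itgbn 82.5%, 68.5%, 63.8% and 72.9%. Nrt exceeded 66.1%, 88.1% and 78.1% on replicates 1 to 3, yet on replicate 4 it was the 5th highest of 6748 genes. That array, labelled SMGoverDf in its source, therefore placed Nrt at a rank like that in wild-type embryos while its ratio, 2.14, stayed below theirs. In unfertilized eggs the share of genes below was 42.1%, 11.1% and 37.3% for Inx3, 79.2%, 62.8% and 61.7% for Nrt, and 40.2%, 13.2% and 64.8% for Itgbn.

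The comparison of unfertilized eggs with oocytes used no wild-type embryo or smg array, and it asks whether the transcripts change without fertilization. None of the 3 genes passed the test across 6782 genes (limma, 3 arrays), and none had an unadjusted p under 0.05. Inx3 was at -0.28 (SE 0.18, adjusted p = 0.382 by limma, 95% interval -0.66 to 0.11), below the median on 3 of 3 arrays. Nrt was at 0.18 (SE 0.17, adjusted p = 0.564 by limma, 95% interval -0.18 to 0.55), above it on 3 of 3. Itgbn was at -0.14 (SE 0.19, adjusted p = 0.709 by limma, 95% interval -0.54 to 0.26), below it on 2 of 3. In the same fit 0.988% of genes were called higher and 10.0% lower. Whether the unfertilized values played a part when the genes were chosen is not recorded.

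Inx3 was above Nrt, and Nrt above Itgbn, on 4 of 4 wild-type embryo arrays, by means of 0.37 ± 0.35 and 0.77 ± 0.24 on the log2 scale. In smg this order did not hold. Inx3 was above Nrt on 1 of 4 smg arrays and above Itgbn on 2 of 4. These are differences of ratios to oocytes and say nothing of which transcript is more abundant. Over the 11 arrays the correlation was 0.973 between Inx3 and Nrt, 0.976 between Inx3 and Itgbn and 0.937 between Nrt and Itgbn. The arrays fall into groups and share the oocyte reference, so these describe the step between groups. The genes were chosen on the step between wild-type embryos and smg, so nothing is read from their correlation.

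Among 52 genes called higher in wild-type embryos than in oocytes, 45 had values on at least 3 smg arrays, and all 45 had a lower mean in smg. Their median was 1.95 in wild-type embryos, 0.59 in smg and 0.04 in unfertilized eggs, and 43 of 45 had an smg mean above the array median. Over all 5791 genes tested 36.1% had a lower mean in smg. The 45 were picked for high values on the same wild-type arrays, so a lower smg mean is in large part set by that choice and nothing is read from it. Across the 45, smg minus wild type had a median of -1.43 and ran from -3.81 to -0.13. Inx3 held the 2nd lowest difference, Nrt the 8th and Itgbn the 12th, close to their places by wild-type level, 2nd, 8th and 14th. These positions share the wild-type arrays with the choice of the genes and are a description. At the edge of the call, Nrt was the last gene called lower in smg, and Dtg (-2.63, SE 0.47) and CG43394 (-1.86, SE 0.38), named because they come next, were the first not called.

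**Figure D3:**
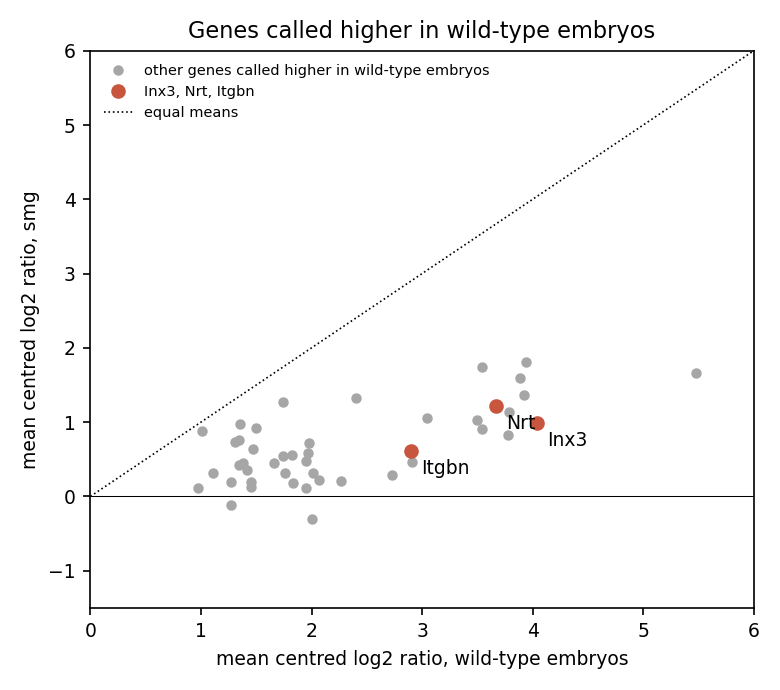
Mean centred log2 ratio in smg (vertical axis) against that in wild-type embryos (horizontal axis) for the 45 genes called higher in wild-type embryos with at least 3 smg values. The 45 points lie below the dotted line of equal means, and Inx3, Nrt and Itgbn (red) lie among the genes with the higher wild-type means.

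The other genes of cell contact were read from 7 lists, chosen by role with earlier results of these arrays known. Of 88 listed genes 44 were among the named spots, 41 of them beside the 3 genes described above. In wild-type embryos 1 of these 41 was called higher and 0 lower by limma against oocytes, where 0.822% and 2.48% of all genes were called. Of the 41, 7 had an unadjusted p under 0.05, as had 859 of all 6328 genes tested. With slide sets as a block 3 were called higher (Inx2, Lac and LanB1), where 99 of all 6328 genes were. With arrays scaled to a common spread 4 were called higher (these and trn), where 122 of all 6328 genes were. The median of the 41 was 0.18 against 0.01 over all genes tested. In smg 0 of 39 tested were called against oocytes by limma (0.0818% of all genes). An unadjusted p under 0.05 was found for 7 of the 39 and for 635 of all 6112 genes tested. Against wild-type embryos 0 of 39 were called higher or lower by limma, where 0.19% and 0.0863% of all genes were. Here 4 of the 39 had an unadjusted p under 0.05, near the share over all genes, 587 of 5791. In unfertilized eggs 1 of 41 was called higher and 2 lower against oocytes, where 0.988% and 10.0% of all genes were.

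Inx2, the partner of Inx3 in mixed channels, was at 0.30, 1.03, 1.15 and 1.53 in wild-type embryos and at -0.31, 0.26, 2.19 and 1.29 in smg. The 2 groups overlapped. Inx2 did not pass the test against oocytes in wild-type embryos (1.0, SE 0.37, adjusted p = 0.22 by limma), except with slide sets as a block or arrays scaled to a common spread, where it was called higher. For Inx2 smg minus wild type was -0.14 (SE 0.53, adjusted p = 0.993 by limma). Of the other innexins with spots, the germline innexin gene zpg was at -0.36 ± 0.28 (n = 3) in wild-type embryos and 0.09 ± 0.48 (n = 4) in smg. Inx7 was at 0.51 ± 0.63 (n = 3) and -0.30 ± 0.21 (n = 3). Neither passed in any comparison. The other 4 innexin genes were not analysed here.

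Of the integrin alpha chains, mew (alpha PS1) was at 0.84, -1.60, 0.67 and 1.12 in wild-type embryos, with replicate 2 far below the others, and at 0.06 ± 0.65 (n = 4) in smg. The alpha PS2 gene, if, was at 0.05 ± 0.06 (n = 3) and -0.08 ± 0.75 (n = 3). Neither passed in any comparison, and the main beta chain gene mys was not analysed here. Among 5 genes of integrin ligands and basement membrane, LanB1, a laminin chain gene, rose in wild-type embryos (1.27, SE 0.29, adjusted p = 0.0347 by limma). LanB1 was at 1.25, 0.94, 0.94 and 1.94 there, at 0.65, -0.84, 0.01 and -0.26 in smg, and at -0.32, -0.18 and 0.11 in unfertilized eggs. Its wild-type and smg arrays did not overlap, while the difference did not pass (-1.37, SE 0.42, adjusted p = 0.229 by limma), except without smg replicate 1 or with arrays scaled to a common spread. The LanB1 rise was lost without any 1 wild-type embryo array, without smg replicate 4, without both replicates 1 and in the values as deposited.

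The integrin adhesion complex, which ties integrins to actin, had 4 genes with spots (Vinc, Pax, Fak and Zyx). Their wild-type differences from oocytes ran from -0.06 to 0.12, with none called. Pax, the paxillin gene, rose in unfertilized eggs (0.70, SE 0.21, adjusted p = 0.0472 by limma). That call was lost without unfertilized replicate 1 or 3 and in the values as deposited.

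Among 11 genes of the Neurotactin list with spots, Nrt was the 1 called in wild-type embryos. The leucine-rich repeat gene trn had the next highest mean (1.09 ± 0.38, n = 3) and was at -0.52 ± 0.57 (n = 3) in smg, where neither the level nor the difference passed (adjusted p = 0.229 for the difference by limma). Gli, which like Nrt encodes a cholinesterase-like transmembrane protein, was at 0.93 ± 0.95 (n = 4) in wild-type embryos and 0.45 ± 0.63 (n = 4) in smg. Ama, which encodes the ligand of Neurotactin, was not analysed here.

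Of 7 adherens junction and polarity genes none was called in wild-type embryos or smg, and their differences from oocytes in wild-type embryos ran from -0.52 to 0.70. In unfertilized eggs crb, an apical polarity determinant, fell (-0.66, SE 0.18, adjusted p = 0.0303 by limma). This call too was lost without unfertilized replicate 1 or 3 and as deposited. Of 12 septate junction genes the highest was Lac, an immunoglobulin-domain protein gene, at 0.91, 2.08, 2.49 and 3.37 in wild-type embryos, just short of the threshold (2.21, SE 0.55, adjusted p = 0.0521 by limma). On smg replicates 1 to 4 Lac was at -1.06, 0.00, 2.86 and 1.45, overlapping the wild-type range. Lac passed in 7 of the 15 alternatives. Tsf2, a septate junction transferrin gene, fell in unfertilized eggs (-0.87, SE 0.18, adjusted p = 0.00364 by limma) and was called in the 7 alternatives run there.

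**Figure D4:**
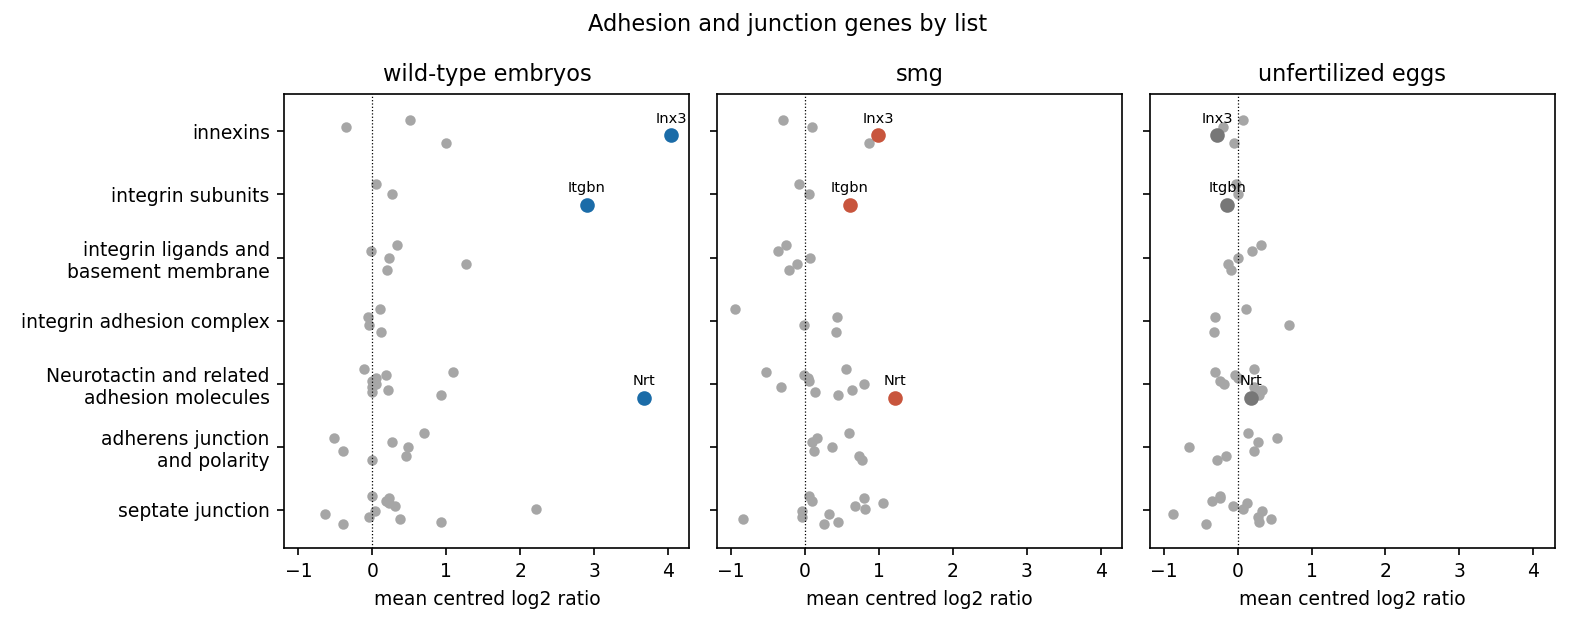
Mean centred log2 ratio (horizontal axis) of each listed adhesion and junction gene with spots, by list (vertical axis), in wild-type embryos, smg and unfertilized eggs. Coloured points are Inx3, Itgbn and Nrt, at 4.04, 2.90 and 3.67 in wild-type embryos; grey points are the other genes, of which Lac at 2.21 is the highest there.

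Many of the other listed genes were high on smg replicate 3, the array with the widest spread over genes (SD 1.11). Of 27 other listed genes measured on all 4 smg arrays, 18 were highest on it. The share over all genes was not counted, so nothing is read from this count. The medians of the 27 on smg replicates 1 to 4 were -0.05, -0.14, 1.20 and 0.68. Inx3 and Nrt were highest on replicate 4 and Itgbn on replicate 1. Whether the state of smg replicate 3 bears on the smg values of the 3 genes was not tested.

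On a further list, drawn up for cellularization, 6 genes had spots. Of these 2, Sry-alpha and bnb, were called higher in wild-type embryos than in oocytes, where 0.822% of all genes were. Both had levels like those of the 3 genes. The other 4 were not called, with wild-type levels from -0.44 to 0.54. Their smg minus wild type ran from -0.13 to 1.17, so the list as a whole did not share the pattern. These data do not show whether bnb has a role in cellularization. Sry-alpha was at 4.87, 4.00 and 2.88 on the 3 wild-type arrays that measured it, at 1.15, 1.18 and 1.75 on 3 smg arrays, and at 0.20 ± 0.53 (n = 3) in unfertilized eggs. bnb was at 4.44, 3.33 and 3.90 on 3 wild-type arrays and at 2.02, 0.73, 1.81 and 1.84 in smg. Their smg and wild-type arrays did not overlap, yet the differences of -2.56 (adjusted p = 0.114 by limma) and -2.29 (adjusted p = 0.0857 by limma) did not pass. That the 3 genes differ from these in their response was not tested.

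Genes with the most similar pattern were sought by Pearson correlation over the 11 arrays, among 2203 named genes measured on all of them. Genes known only by a CG or CR identifier were left out, as were genes missing on any array, such as Sry-alpha and bnb. Each of the 3 genes had the others among its 3 most similar. The 3 genes were chosen on the same difference between wild-type embryos and smg, so this likeness is in large part set by that choice. Beside these, Inx3 was followed by Traf4 (0.938), dan (0.928) and twi (0.891). Nrt was followed by dan (0.914), twi (0.891) and Traf4 (0.89). Itgbn was followed by dan (0.939), Doc3 (0.931) and Galphas (0.925).

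Traf4, a signalling adaptor gene, stood in the 3 groups, in the order used above, at 3.78 ± 0.62 (n = 4), 0.83 ± 1.49 (n = 4) and -0.08 ± 0.10 (n = 3). The transcription factor gene dan stood at 3.50 ± 0.46, 1.03 ± 0.48 and 0.69 ± 0.63. twi, the mesoderm determinant, had a smaller range, at 1.47 ± 0.55, 0.64 ± 0.37 and -0.20 ± 0.07, as had the dorsal T-box gene Doc3 at 1.38 ± 0.21, 0.45 ± 0.53 and 0.05 ± 0.26. The G protein subunit gene Galphas was at 1.83 ± 0.55, 0.18 ± 0.71 and 0.08 ± 0.28. A correlation over 11 arrays in 3 groups reflects the relative spacing of the group means and the scatter within groups. A smaller range alone does not lower it where the scatter within groups is smaller in proportion.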

How the data were processed

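Per the submitters' design text, images of 16 bits were quantified with QuantArray 3, and GeneTraffic Duo 3.2 made ratios with a rank-invariant LOWESS step within each array. The authors deposited 1 log2 ratio per spot and array, with no channel intensities. Background treatment and spot filters, not given in the sources used here, may bear on low ratios. Base 2 was inferred from the lowest value, -11.92. Of 27648 spots, 15116 carried a single gene in the platform's probe table and were averaged to 6793 genes, 6692 of them matched by gene number to RefSeq names (Release 6 plus ISO1 MT).

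Each array was centred on its gene median. A gene was tested when at most 1 array of each group compared lacked a value. Two-sided tests were made with limma 3.58.1 (R 4.3.3), by lmFit and eBayes, with Benjamini-Hochberg adjustment over all genes tested and a threshold of 0.05. A model held the 8 arrays at 2 to 3 h, another the 3 unfertilized arrays, and the last all 11 for wild-type embryos against unfertilized eggs. Comparisons with oocytes test a group mean against 0, which leaves out the oocytes' own spread. The number of arrays limits the precision.

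The 3 genes, the lists, the centring and the tests were chosen with earlier results of these data known. Named were the 3 genes, called genes of the lists, close family members and partners, and the 5 genes with the most similar pattern. The genes on either side of the call, Sry-alpha, bnb, trn, Gli and Lac were named with their values already seen. The fit was also run on simulated data with noise drawn independently for each array. The real arrays are correlated with each other, so that run is no check of the calls given here. Alternatives were the deposited values, medians of spots, complete genes, the opposite sign for smg replicate 3, slide sets as a block, arrays left out, and, added after seeing the data, arrays scaled to a common spread.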

Additional observations from a re-analysis of the deposited data

Results flagged for a closer look

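Between smg and wild-type embryos the difference passed the test for Inx3 (-3.05), Nrt (-2.46) and Itgbn (-2.29), but these genes were chosen on that difference. Among 69 groups of 4 arrays examined for the listed genes, 6 held 1 array far from the others, and chance marks about 5% of such groups. The mew value of -1.60 on wild-type embryo replicate 2 lay far below the other 3. Vinc was at 1.88 on smg replicate 1, above the others, and Fas1 at 0.49 on wild-type embryo replicate 4. Cont was at -0.69 on wild-type embryo replicate 1, below the others. bnb was at 0.73 on smg replicate 2, below the others, and Septin2 at 0.98 on wild-type embryo replicate 4, above them. No group of Inx3, Nrt or Itgbn held such an array.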

How the results depend on the processing

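No paired analysis was possible because the replicate numbers only order the arrays by accession. Counts of called genes, by limma, depended on the setting, as did the levels of the 3 genes against oocytes. As deposited these were 3.04, 2.67 and 1.90 in wild-type embryos (adjusted p = 0.834 each by limma) and -0.12, 0.10 and -0.51 in smg for Inx3, Nrt and Itgbn. As deposited, 0 genes were called in wild-type embryos against oocytes (209 when centred), in smg against oocytes (5), in smg against wild-type embryos (16) or for wild type against unfertilized eggs (19). At an unadjusted p under 0.05 there were then 139, 51, 20 and 24 genes. With arrays scaled to a common spread the counts were 584, 0 (515 unadjusted), 152 and 54. Without both replicates 1 of the 2 to 3 h groups they were 88, 1 and 0 (872 unadjusted) for the first 3 comparisons. With the slide sets as a block these were 528, 33 and 235. With the opposite sign for smg replicate 3, 0 genes (492 unadjusted) were called in smg against oocytes and 2 in smg against wild-type embryos. On complete genes 7 were called for wild type against unfertilized eggs, where fewer genes were tested.

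Leaving out 1 array at a time gave 39 to 502 genes in wild-type embryos, 1 to 36 in smg, 0 to 209 in smg against wild-type embryos, 490 to 686 in unfertilized eggs (745 with all arrays) and 14 to 22 for wild type against unfertilized eggs. The extremes came without wild-type embryo replicate 2 (39) and smg replicate 3 (502), without smg replicates 2 (1) and 3 (36), without smg replicate 1 (209), and without wild-type embryo replicate 1, 2 or 4 (0, with 515, 380 and 514 unadjusted). Without any 1 wild-type embryo array the first count was 39 to 66. The causes were not tested. In unfertilized eggs against oocytes none of the 3 genes was called in any of the 7 alternatives. Itgbn turned from -0.14 to 0.044 without replicate 2, within -0.30 to 0.044 over the arrays left out. Inx3 ran from -0.38 to -0.13 and Nrt from 0.14 to 0.22 over these.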
